A study of Mus musculus with 2 samples.

Results

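Lysosomal genes were compared between cortical fiber cells and epithelial cells of the mouse eye lens. The group comprised 40 genes chosen by name: the cathepsins and the peptidase gene Tpp1, glycosidases, lipid hydrolases and lipid-handling proteins, lysosomal membrane proteins, subunits of the vacuolar proton pump (V-ATPase) and the transcription factor gene Tfeb. Of these, 38 had a probe assigned to 1 gene symbol, out of 13709 such genes on the array, and Npc1 and Atp6v0c were not analysed here. The 40 genes were chosen with earlier results of these data known. Poly(A) RNA was prepared from the cortex, 1 array, and from the capsule with its adhering epithelium, 1 array, after forceps dissection of lenses from 13-day-old mice, 5 in all. The sources used here give neither genotype, strain and sex nor whether the lenses were pooled. The description field of both samples speaks of fetal liver, whereas their titles and source names give the lens.

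Lysosomes are acidic organelles in which cathepsins cut proteins, glycosidases trim sugars from glycoproteins and glycolipids, and other hydrolases break down lipids. The V-ATPase pumps protons across the lysosomal membrane: its V1 sector hydrolyses ATP in the cytosol, and its V0 sector carries protons through the membrane. Lens epithelial cells keep their organelles, whereas fiber cells lose nuclei, mitochondria and other organelles as they mature, which is why degradative genes of the fiber cell are of interest.

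Intensities are given as multiples of the array median, and they compare 1 gene between the arrays, not different genes. Values under 0.5 of the array median were raised to that level, called the floor. A gene counted as higher on an array when it was brighter there by 3-fold or more and reached at least that array's median. With 1 array for each cell population there is no replicate and no test, so every difference is 1 array against 1 array. The only error the data give is technical. Over 558 genes with several probes that exceeded the floor on each array, the log2 difference varied between probes of a gene with a pooled SD of 1.10 and a median SD of 0.59.

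Before the lysosomal genes, the identity of the samples was examined through marker genes. The marker lists were chosen with earlier results of these data known, so they are no independent check. Of 11 fiber markers measured, 9 passed the 3-fold limit on the cortex array, none on the epithelium array, with Bfsp1 (filensin) at 738 in cortex against 12.5 in epithelium. Of 11 epithelial markers, none passed in cortex while 7 did so in epithelium, with Cdh1 (E-cadherin) below the floor in cortex and at 26.04 in epithelium. Of the rest, Sfrp1 (329 in cortex, 224 in epithelium) and Itga6 (3.31 in cortex, 2.50 in epithelium) were brighter in cortex, under the limit. Npnt lay above the floor in cortex alone, at 1.17, and Gja1 in epithelium alone, at 0.569. Of 11 liver and erythroid markers, 5 were below the floor on both arrays. The erythroid gene Epb42 passed in cortex, at 2.09 in cortex and 0.678 in epithelium (3.08-fold), and none passed in epithelium, where the highest intensity was 2.26.

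Of the 38 lysosomal genes, 1 passed the 3-fold limit in the direction of cortex and 10 in that of epithelium. By the same rule, the shares over all 13709 genes were 9.41% for cortex and 8.17% for epithelium. Among the 8351 genes that exceeded the floor on each array these shares were 13.2% for cortex and 10.2% for epithelium. The 10 were the protease genes Ctsb, Ctsc, Ctsh and Ctsl, the glycosidase genes Gaa, Glb1, Gusb, Hexa and Man2b1, and the membrane protein gene Cd63. The 1 gene higher in cortex was Atp6v1b2, which encodes a V1 subunit of the proton pump. In a bulk sample, fewer cells of a type and less RNA per cell cannot be told apart.

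The difference was not shared evenly by the parts of the lysosome. Of the 35 members above the floor on both arrays, 28 (80.0%) were dimmer in cortex than in epithelium, against 49.0% of the 8351 genes. The median log2 difference, cortex minus epithelium, was -1.95 for the 15 protease and glycosidase genes, -0.79 for the 10 lipid-handling and membrane protein genes and 0.01 for the 9 pump subunits, against 0.03 for all genes. Over all 38 genes, 3 of them below the floor on both arrays and entered as 0, the median was -0.79. Of the 17 members in the middle of the group's brightness range, between intensities of 4.13 and 35.0, 1 was higher in cortex and 5 in epithelium. Of the 3551 genes in that range, 15.5% were higher in cortex and 10.3% in epithelium.

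**Figure D1:**
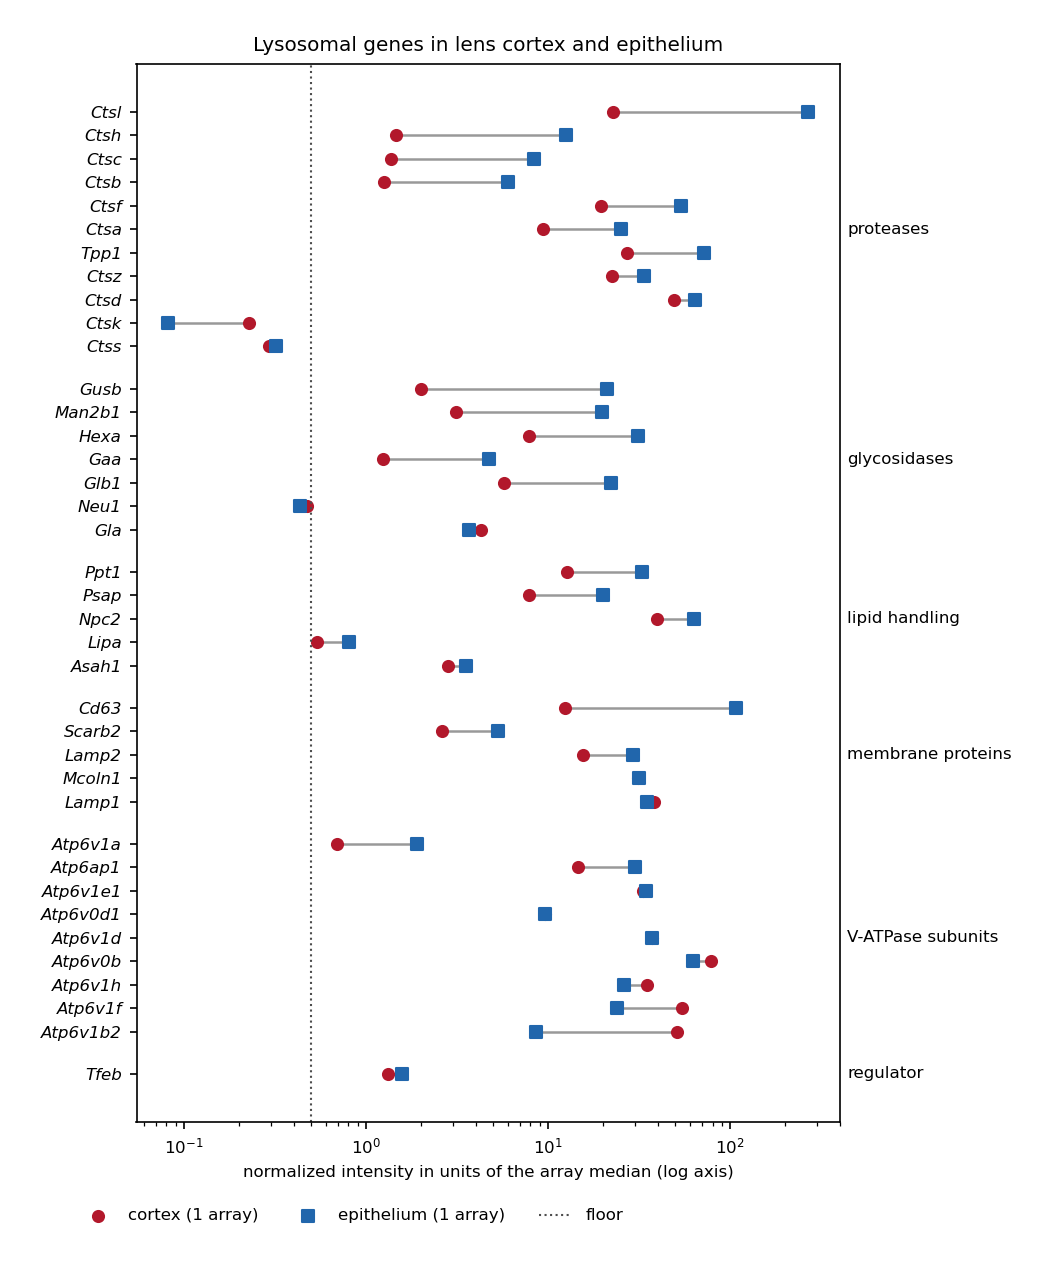
Normalized intensity of the 38 measured lysosomal genes in cortex (circles) and epithelium (squares), 1 array each, on a log axis in units of the array median, grouped by class, with the floor as a dotted line. The long bars with cortex on the left belong to proteases, glycosidases and Cd63. Among the pump subunits, the symbols of Atp6v1d, Atp6v1e1 and Atp6v0d1 overlap. Atp6v1b2 has cortex on the right, at 51.0 in cortex against 8.61 in epithelium.

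**Figure D2:**
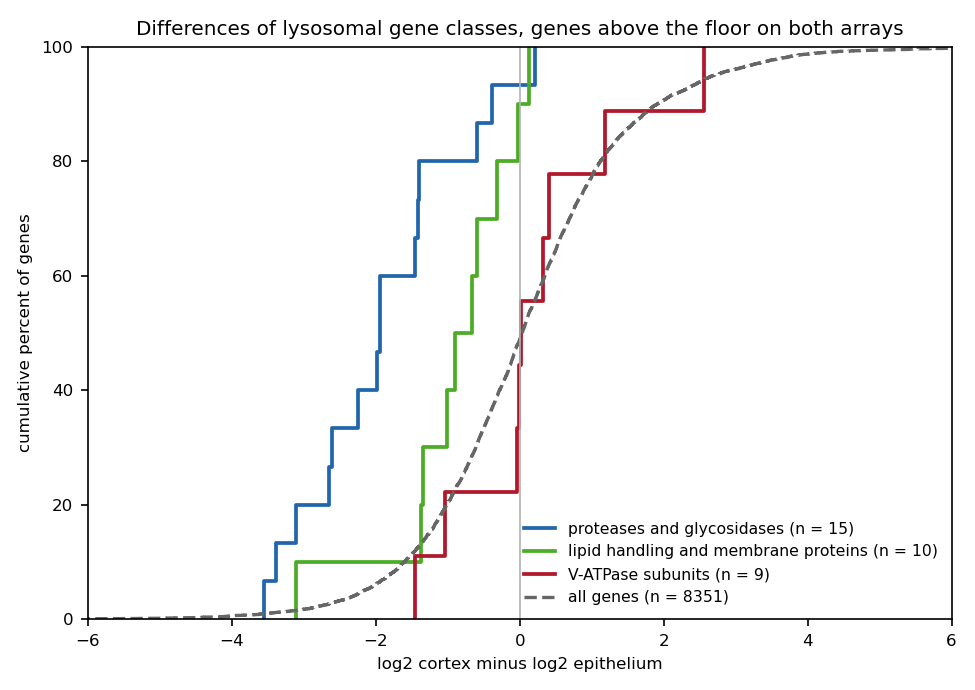
Cumulative percent of genes against log2 cortex minus log2 epithelium for 3 classes of lysosomal genes and for all 8351 genes above the floor on both arrays, of which 24 lie outside the axis. The curve of proteases and glycosidases (median -1.95) lies left of that of all genes (0.03), while the curve of pump subunits (0.01) runs close to it.

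Tfeb encodes a master regulator of lysosomal genes, a helix-loop-helix factor that binds E-boxes within the so-called CLEAR element of their promoters. Tfeb stood at 1.33 in cortex and 1.57 in epithelium. The log2 difference of -0.24 (1.18-fold) is smaller than the median SD between probes. Its relatives Tfe3, Tfec and Mitf could not be compared: Tfe3 lay above the floor in epithelium alone, at 0.598, Mitf in cortex alone, at 0.549, and Tfec on neither array. Zkscan3, described in human cells as a repressor of lysosomal and autophagy genes, stood at 3.22 in cortex and 8.18 in epithelium (2.54-fold), under the limit.

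The promoters of the group were searched for the E-box CACGTG, for TCACGTGA and for the longer GTCACGTGAC, each of which contains the shorter one and reads the same on both strands. The windows, from RefSeq on build GRCm38.p6, run from 250 bases before to 50 bases after each annotated start, and 34 of the 40 genes had one. An E-box was found in 12 of 34 genes (35.3%), against 10.1% of the 10982 genes with a probe on the array and a window. The form TCACGTGA was found in 6 genes (17.6%), against 1.68% of genes with a probe, and GTCACGTGAC in none, against 0.537%. Among the members with both a probe and a window, an E-box was found in 3 of the 8 that were higher in epithelium and in 9 of the other 25. Genes with an E-box therefore stood on both sides of the 3-fold limit. With the deposited scaling none of the 6 genes with TCACGTGA was called, but Ctsa, 1 of the 6, passed in epithelium in the 3 other scalings, and Atp6v1a, another, did so after centring on ribosomal protein genes. A match of letters is a description and shows no binding. The stretches below are shown because they place the same letters in genes past the 3-fold limit and in genes under it; capitals mark CACGTG, and positions count back from the annotated start.

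Of the genes higher in epithelium, Glb1 (chr9:114401018-114401047, plus strand, bases -60 to -31), Gaa (chr11:119267811-119267840, plus strand, bases -152 to -123) and Ctsl (chr13:64370739-64370768, minus strand, bases -248 to -219), had 1 E-box each.
Glb1: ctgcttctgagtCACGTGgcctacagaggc
Gaa: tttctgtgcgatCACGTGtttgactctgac
Ctsl: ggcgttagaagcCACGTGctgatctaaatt
Genes under the limit with the deposited scaling included Lamp1 (chr8:13159088-13159160, plus strand, bases -73 to -1) with 4 E-boxes, Mcoln1 (chr8:3500436-3500491, plus strand, bases -83 to -28) with 2, Atp6v0b (chr4:117887330-117887377, minus strand, bases -48 to -1) with 2, Ctsd (chr7:142387908-142387937, minus strand, bases -110 to -81), whose second E-box lies outside the stretch, and Atp6v1a (chr16:44139373-44139402, minus strand, bases -143 to -114).
Lamp1: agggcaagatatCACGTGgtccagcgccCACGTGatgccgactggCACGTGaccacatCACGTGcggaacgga
Mcoln1: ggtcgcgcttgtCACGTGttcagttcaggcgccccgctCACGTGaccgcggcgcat
Atp6v0b: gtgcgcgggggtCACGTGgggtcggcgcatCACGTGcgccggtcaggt
Ctsd: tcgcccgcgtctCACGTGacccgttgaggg
Atp6v1a: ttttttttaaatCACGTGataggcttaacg

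The protease genes were dimmer in cortex by unequal amounts. By their brightest probe this held for all 9 above the floor on both arrays, with a median log2 difference of -1.45 over the 9. Of the 11 measured, 4 (36.4%) were past the 3-fold limit in epithelium, against 8.17% of all genes. The 9 include Ctsa, whose probes disagreed. Ctsl encodes cathepsin L, a cysteine endopeptidase. It stood at 22.8 in cortex and 268 in epithelium (11.8-fold), and ranked 79 of 8351 genes from the epithelial end. Ctsh, an aminopeptidase, stood at 1.46 in cortex and 12.6 in epithelium (8.61-fold). Ctsc, the dipeptidyl peptidase that activates serine proteases of immune cells, stood at 1.38 in cortex and 8.39 in epithelium (6.09-fold). Ctsb, a cysteine protease with carboxydipeptidase activity, stood at 1.26 in cortex and 6.01 in epithelium (4.76-fold). The cortex values of these last 3 genes lay just above the array median, whereas that of Ctsl was well above it.

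The remaining proteases fell short of the limit. Ctsf, a cysteine protease, stood at 19.6 in cortex and 53.5 in epithelium (2.73-fold), and Tpp1, the tripeptidyl peptidase lost in a childhood neuronal ceroid lipofuscinosis, at 27.2 in cortex and 71.6 in epithelium (2.63-fold). Both passed 3-fold in epithelium after quantile normalization, after loess on brightness and after centring on ribosomal protein genes. Ctsz, a carboxypeptidase, stood at 22.3 in cortex and 33.6 in epithelium (1.504-fold). Ctsd, the main aspartic protease of lysosomes, stood at 49.0 in cortex and 64.0 in epithelium (1.30-fold), a log2 difference of -0.38. In the 3 other scalings this difference was -1.15 (quantile normalization), -1.04 (loess) and -1.30 (ribosomal centring), larger than the median SD between probes but under the limit. Ctsk, the collagenolytic cathepsin of osteoclasts, and Ctss, a cathepsin of antigen-presenting cells, were below the floor on both arrays.

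Ctsa, the serine carboxypeptidase that protects β-galactosidase and neuraminidase, was the only protease with more than 1 probe, and its 3 probes disagreed. Agreement between probes could not be checked for the other proteases. Its brightest probe stood at 9.41 in cortex and 25.2 in epithelium (log2 difference -1.42). A second probe stood at 3.85 in cortex and 1.85 in epithelium (log2 difference 1.06), the other direction, and the third probe lay below the floor on both arrays. By the brightest probe Ctsa passed 3-fold in epithelium in the 3 other scalings, whereas the mean over probes gave a log2 difference of -0.12. No direction can be given for Ctsa.

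Of the 7 glycosidase genes measured, 5 passed the limit (71.4%), all in epithelium, where 8.17% of all genes passed. Gusb, the β-glucuronidase that degrades glycosaminoglycans, stood at 2.01 in cortex and 21.1 in epithelium (10.5-fold). Man2b1, the lysosomal α-mannosidase, stood at 3.13 in cortex and 19.7 in epithelium (6.28-fold). Hexa, the α subunit of β-hexosaminidase, whose loss in humans causes Tay-Sachs disease, stood at 7.84 in cortex and 31.1 in epithelium (3.97-fold). Gaa, the acid α-glucosidase that degrades glycogen, stood at 1.23 in cortex and 4.76 in epithelium (3.85-fold), and Glb1, the β-galactosidase, at 5.74 in cortex and 22.0 in epithelium (3.83-fold). Hexa, Gaa and Glb1 lay close to the limit and did not reach 5-fold. The exceptions were Gla, the α-galactosidase A of Fabry disease, at 4.28 in cortex and 3.68 in epithelium, and Neu1, the neuraminidase, which was below the floor on both arrays. Gla was 1.16-fold brighter in cortex with the deposited scaling, a direction that turned after centring on ribosomal protein genes (log2 difference -0.70). Probes that the annotation shares between Gusb or Glb1 and another gene were not used.

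None of the 5 genes of lipid breakdown and lipid handling passed the limit, although each was dimmer in cortex. Ppt1, the palmitoyl-protein thioesterase, stood at 12.7 in cortex and 32.9 in epithelium (2.60-fold). Psap, the precursor of the saposins that present sphingolipids to hydrolases, stood at 7.84 in cortex and 19.9 in epithelium (2.54-fold). Quantile normalization and ribosomal centring brought both past 3-fold, and loess brought Ppt1 past it. Npc2, which hands cholesterol to the membrane transporter NPC1, stood at 39.8 in cortex and 63.4 in epithelium (1.59-fold). Its log2 difference of -0.67 was -1.40, -1.29 and -1.58 after quantile normalization, loess and ribosomal centring. The acid ceramidase gene Asah1 stood at 2.84 in cortex and 3.55 in epithelium (1.25-fold). Lipa, the acid lipase, lay between the floor and the array median on both arrays, at 0.535 in cortex and 0.805 in epithelium.

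Among the membrane proteins, Cd63 stood apart from the structural proteins of the lysosome. Cd63, a tetraspanin of late endosomes, multivesicular bodies and exosomes, stood at 12.4 in cortex and 107 in epithelium (8.67-fold), and ranked 125 of 8351 genes from the epithelial end. Lamp1 and Lamp2 encode the abundant glycoproteins that line the lysosomal membrane. Lamp2 stood at 15.6 in cortex and 29.3 in epithelium (1.87-fold), and Lamp1 at 38.1 in cortex and 35.0 in epithelium (1.09-fold). Scarb2, which carries β-glucocerebrosidase to lysosomes, stood at 2.63 in cortex and 5.28 in epithelium (2.01-fold). Mcoln1, the calcium-permeable channel TRPML1, stood at 31.3 in cortex and 31.7 in epithelium. Lamp1 was slightly brighter in cortex with the deposited scaling and brighter in epithelium in the 3 other scalings (log2 differences of -0.49 after quantile normalization, -0.38 after loess and -0.79 after ribosomal centring).

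Of the 9 proton pump genes of the group that were measured, 1 passed the limit in cortex (11.1%) and 8 differed by less with the deposited scaling. Of all genes, 9.41% passed in cortex and 8.17% in epithelium, so the pump count lay near the share of all genes. Atp6v1b2 encodes subunit B2, which forms the ATP-hydrolysing ring together with subunit A. It stood at 51.0 in cortex and 8.61 in epithelium, 5.92-fold brighter in cortex, and 94.4% of the 8351 genes had a lower difference. The call held in each of the 3 other scalings, with a lowest log2 difference of 1.65. Atp6v1f (subunit F of the central stalk) stood at 54.4 in cortex and 24.01 in epithelium (2.26-fold), and its second probe gave 36.6 in cortex and 19.3 in epithelium, a log2 difference of 0.92 against 1.18 for the first.

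Among the other pump genes of the group, Atp6v1d, Atp6v1e1 and Atp6v0d1 were nearly equal on the arrays with the deposited scaling. Atp6v1d (the rotor axle D) stood at 37.4 in cortex and 37.1 in epithelium. Atp6v1e1 (E1 of the outer stalks) stood at 33.4 in cortex and 34.3 in epithelium, and its second probe lay near the floor, at 0.544 in cortex and 0.560 in epithelium, where it bears little on the difference. Atp6v0d1 (d1, which joins V0 to the central stalk) stood at 9.57 in cortex and 9.67 in epithelium. Atp6v1h (the regulatory subunit H) stood at 34.7 in cortex and 26.3 in epithelium (1.32-fold), and Atp6v0b, which belongs to the proton-carrying ring, at 78.5 in cortex and 62.7 in epithelium (1.25-fold). Atp6v1d, Atp6v0b and Atp6v1h changed sign in the 3 other scalings, so none of these has a settled direction. The dimmer pair in cortex was Atp6ap1, an accessory protein of pump assembly, at 14.6 in cortex and 30.0 in epithelium (2.06-fold), and Atp6v1a (catalytic subunit A), at 0.696 in cortex and 1.91 in epithelium. Atp6v1a lay below the array median in cortex. Its 2.74-fold difference was the same without a floor, shrank to a log2 difference of -0.93 once the floor was raised to the median, and passed the limit in epithelium after ribosomal centring, as did that of Atp6ap1. Subunits A and B2 work in 1 ring but their probes differed in opposite directions, with log2 differences of -1.45 and 2.56, each from 1 probe.

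Of 12 other pump subunits and isoforms measured, 3 passed in cortex (25%) and 1 in epithelium (8.33%), against 9.41% and 8.17% of all genes. After ribosomal centring 1 of the 3, Atp6v1c1, still passed in cortex. Atp6v1c1 (C1, which links the stalk to V0) stood at 173 in cortex and 21.0 in epithelium, 8.20-fold brighter in cortex, and the call held in each scaling. Atp6v0a4, the a4 isoform known from kidney and inner ear, stood at 12.1 in cortex and 3.22 in epithelium (3.77-fold). Atp6v1e2, the E2 isoform known from testis, stood at 2.15 in cortex and below the floor in epithelium, at least 4.31-fold. Tcirg1, the a3 isoform of osteoclasts and lysosomes, lay below the floor in cortex and at 2.39 in epithelium, at least 4.78-fold brighter in epithelium. With the floor raised to the array median, Atp6v1e2 and Tcirg1 no longer passed, and Atp6v0a4 and Atp6v1e2 no longer passed after centring on ribosomal protein genes. Atp6v1b1, the B1 isoform, stood at 3.35 in cortex and 3.33 in epithelium.

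**Figure D3:**
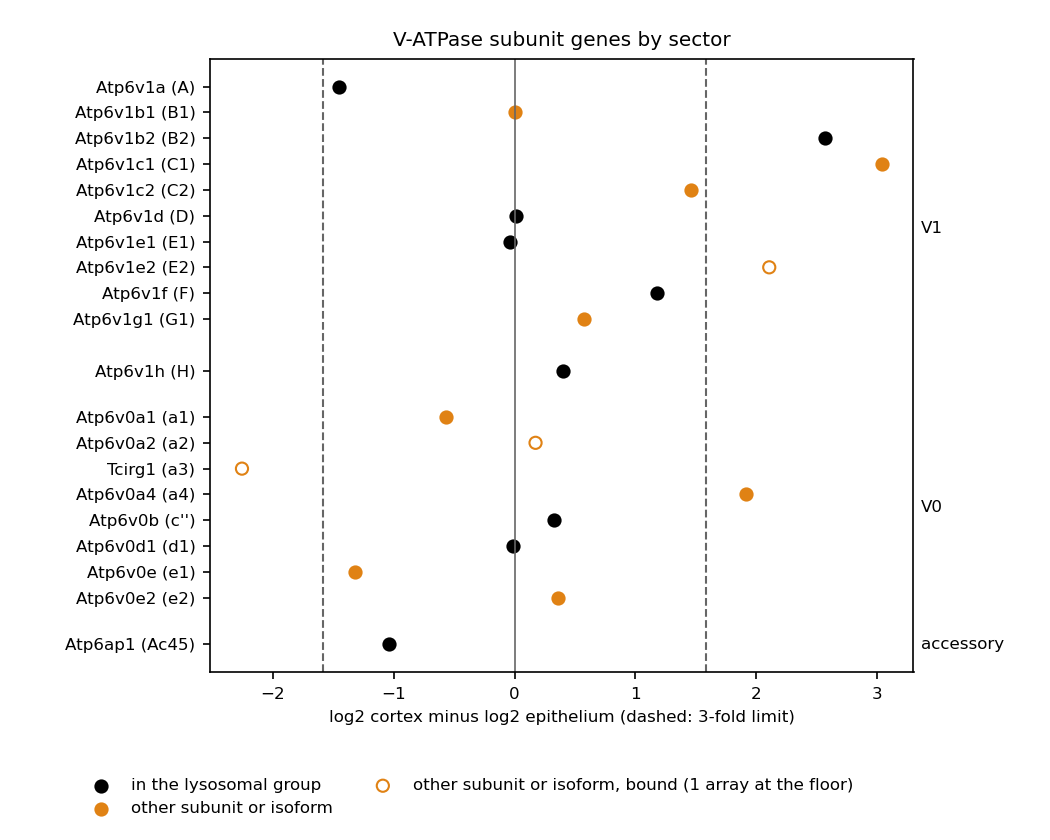
Log2 cortex minus log2 epithelium of 20 V-ATPase genes by sector, with subunit letters in brackets, members of the lysosomal group in black and other subunits in orange, open where 1 array is at the floor and the value is a bound. Dashed lines mark the 3-fold limit, passed on the cortex side by Atp6v1b2, Atp6v1c1, Atp6v1e2 and Atp6v0a4 and on the epithelium side by Tcirg1.

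Lysosomal genes outside the group were examined from a list of further hydrolases, membrane proteins, delivery and control genes, and cysteine protease inhibitors. Of 27 further hydrolases and cofactors measured, 3 passed in cortex (11.1%) and 4 in epithelium (14.8%), against 9.41% and 8.17% of all genes. The median log2 difference of the 18 above the floor on both arrays was -0.73. Naaa, an acid amidase of fatty acid ethanolamides, stood at 44.4 in cortex and 2.34 in epithelium, 19.0-fold brighter in cortex. Lgmn (legumain, an asparaginyl endopeptidase that matures cathepsins) stood at 27.7 in cortex and 3.89 in epithelium (7.11-fold). Both calls held in each scaling. Ctsg, a serine protease of neutrophil granules rather than a lysosomal cysteine cathepsin, stood at 50.6 in cortex and 9.32 in epithelium (5.43-fold), and no longer passed after centring on ribosomal protein genes.

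In the other direction, Dnase2a, the lysosomal DNase II, stood at 14.6 in cortex and 110 in epithelium (7.56-fold). Naglu, the N-acetylglucosaminidase of heparan sulfate breakdown, stood at 0.863 in cortex and 4.02 in epithelium (4.66-fold). Hyal2, a hyaluronidase, and Man2b2, an α-mannosidase, were higher in epithelium by 3.15-fold and at least 3.16-fold, with Hyal2 at 0.989 in cortex and 3.11 in epithelium and Man2b2 below the floor in cortex and at 1.58 in epithelium. Of these 4, Dnase2a and Naglu passed in all scalings and with the floor at the array median.

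Of 21 further membrane proteins measured, none was higher in cortex and 5 (23.8%) were higher in epithelium, against 9.41% and 8.17% of all genes. These were Entpd4 (a nucleotidase of Golgi and lysosome, 2.85 in cortex against 15.7 in epithelium), Slc17a5 (the sialic acid exporter, 0.812 in cortex against 2.94 in epithelium), Laptm4b (2.74 in cortex against 9.52 in epithelium), Cln3 (the Batten disease protein, 2.34 in cortex against 7.77 in epithelium) and Laptm4a (18.1 in cortex against 58.6 in epithelium). Their folds ran from 3.24 for Laptm4a to 5.52 for Entpd4. With the floor raised to the array median Slc17a5 no longer passed, and the other 4 passed in each scaling.

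The genes that bring enzymes to the lysosome split between their receptors. M6pr, the small cation-dependent mannose 6-phosphate receptor, stood at 1.66 in cortex and 7.77 in epithelium (4.68-fold). Igf2r, the large receptor that also binds insulin-like growth factor II, stood at 22.5 in cortex and 5.40 in epithelium, 4.16-fold brighter in cortex, a call lost after centring on ribosomal protein genes. Of the complexes that anchor mTORC1 signalling to the lysosome, Lamtor1 stood at 204 in cortex and 28.8 in epithelium (7.08-fold), and Rragc at 7.40 in cortex and 1.26 in epithelium (5.89-fold). Both calls held in each scaling. Lamtor2, Lamtor3 and Lamtor5, partners of Lamtor1 in the Ragulator complex, did not pass, with log2 differences of 0.75, -1.13 and -0.38, in this order. Rraga, Mtor and Flcn did not pass either, with log2 differences of -0.84, -1.38 and 0.32. Of the 19 delivery and control genes measured, 3 passed in cortex (15.8%) and 1 in epithelium (5.26%), against 9.41% and 8.17% of all genes.

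Cysteine protease inhibitors gave 1 call among 5 genes measured, in cortex (20%), where 9.41% of all genes passed. Cst6 (cystatin M) stood at 5.02 in cortex and 1.31 in epithelium (3.82-fold), a call lost after centring on ribosomal protein genes. Cst3 (cystatin C), the widely expressed secreted inhibitor of cathepsins, stood at 120 in cortex and 287 in epithelium (2.39-fold), under the limit.

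Macrophages are rich in lysosomes, and their markers were read beside these results. Of 16 macrophage and microglia markers measured, 12 were below the floor on both arrays, among them Ptprc, Adgre1, Aif1, Tyrobp, Itgam and C1qa, and none passed 3-fold. Their summed intensity, 6.64 in cortex and 4.47 in epithelium, includes the values below the floor and is no measure of cell content. Markers of pigment cells and of the ciliary body went in both directions. Of 10 measured, Dct passed in cortex, at 1.97 in cortex and below the floor in epithelium (at least 3.95-fold), and Tyrp1, Oca2, Ptgds, Msx1 and Gpx3 passed in epithelium, with a summed intensity of 14.4 in cortex and 148 in epithelium, most of it from Ptgds (7.54 in cortex against 123 in epithelium). Oca2, which encodes a melanosome membrane protein, stood at 0.521 in cortex and 9.09 in epithelium, while the defining pigment gene Tyr was below the floor on both arrays. Rpe65 and Slc45a2 lay above the floor in cortex alone, at 0.972 and 0.581. Pmel stood at 0.760 in cortex and 1.59 in epithelium (2.09-fold), under the limit. Of all genes, 9.41% passed in cortex and 8.17% in epithelium. The part of these cells in the lysosomal differences was not tested.

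The dependence on scaling was read gene by gene. The call of Atp6v1b2 in cortex was kept after quantile normalization, loess on brightness and centring on ribosomal protein genes. All 10 calls in epithelium were kept after quantile normalization and loess. Ribosomal centring lowers the log2 difference of each of these genes by the same 0.91, so none of the 10 calls can be lost there. The median difference of all genes above the floor on both arrays moved by -0.14, -0.12 and -0.91 in these scalings. The median of the pump subunits was -0.49, -0.40 and -0.90, so the near-zero pump median holds for the deposited scaling alone. With the deposited scaling, quantile normalization and loess the pump median lay above the medians of the proteases and of the glycosidases, an order that a constant shift such as ribosomal centring cannot change.

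**Figure D4:**
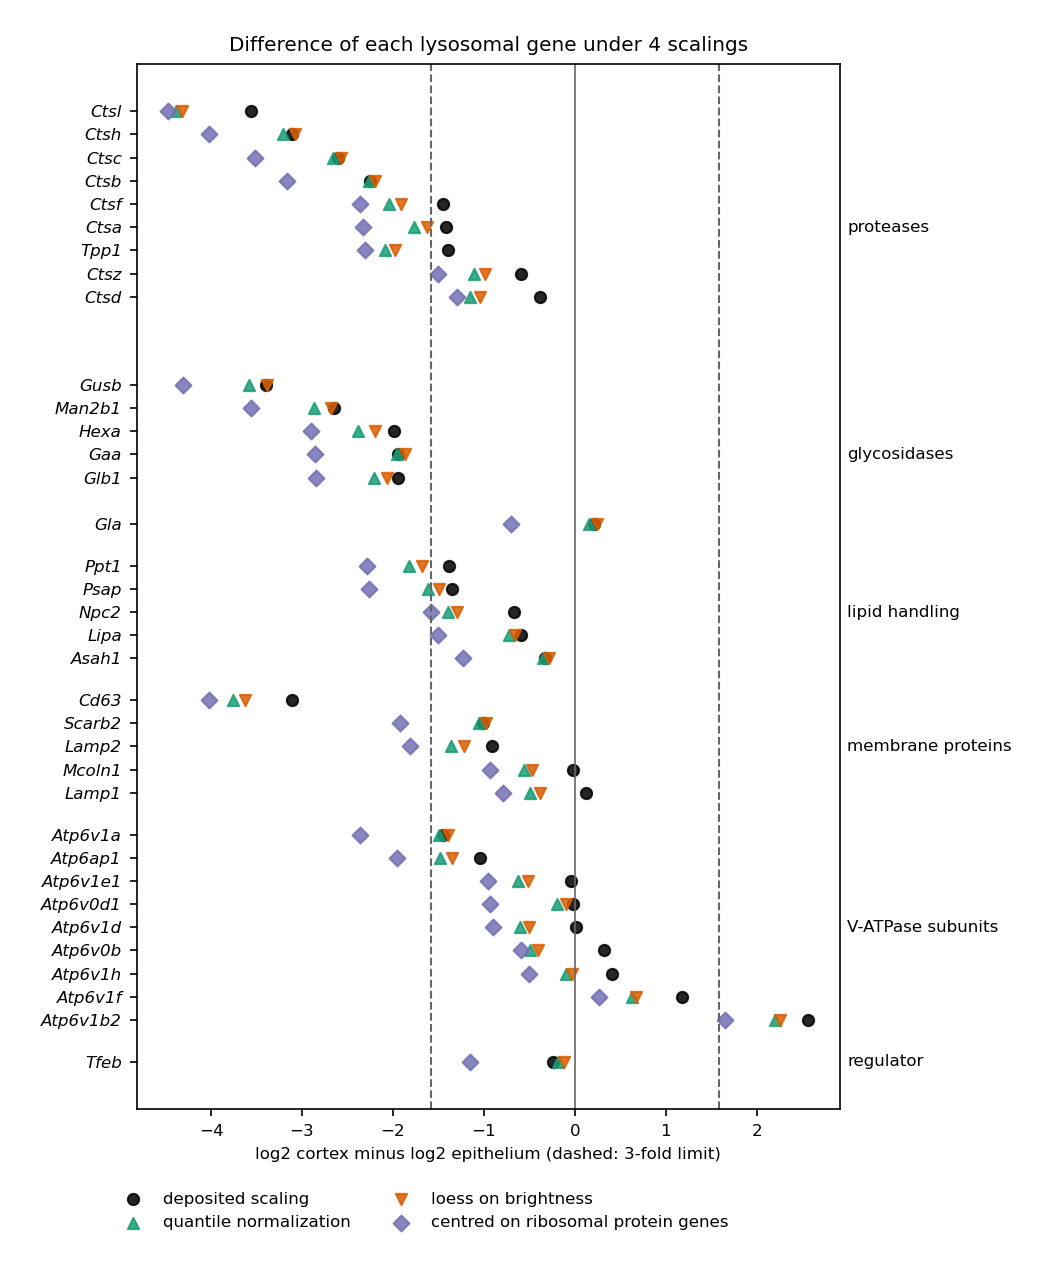
Log2 cortex minus log2 epithelium of the 35 lysosomal genes above the floor on both arrays under 4 scalings, grouped by class, with dashed lines at the 3-fold limit. The 10 genes past the left line with the deposited scaling stay past it in the others. Ribosomal centring moves all 35 left by the same amount. Lamp1, Atp6v1d, Atp6v0b and Atp6v1h cross 0 in the 3 other scalings, and Gla does so after ribosomal centring alone.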

How the data were processed

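Biotin-labelled RNA of 2 samples was hybridized to 1-colour CodeLink mouse bioarrays, stained with a Cy5 conjugate and read with the CodeLink software, per the labels. The deposited values are 1 intensity for each of 19819 probes in each sample. These intensities of the authors are linear, reach 5411 in cortex and 1061 in epithelium, include values below 0 (161 probes in cortex, 74 in epithelium) and have a median of 0.998 on both arrays. No source used here states the scaling and background steps. The number of arrays limits the precision. Probes with a missing value were left out. The platform annotation gave 15120 probes 1 symbol, 38 several and 4661 none, and 15064 matched RefSeq (GRCm38.p6) by Entrez identifier, with no changed symbol.

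After flooring at 0.499 on each array, log2 was taken, and the probe with the highest mean represented a gene. Where 1 array alone exceeded the floor, the fold is a bound ("at least"). Members and lists were chosen with earlier results of these data known. Named genes are all members, all called genes of the further lysosomal lists, and marker genes brighter than the floor in either sample, of which the text gives some by name and the rest as counts; others, such as markers below the floor, are named for their role, after their values were seen. Alternatives were 3 other scalings (loess with a span of 0.3, centring on 62 ribosomal protein genes, quantile normalization), flooring at the median or not at all, averaging the probes of a gene, limits of 2-fold and 5-fold, and a brightness filter at 4 times the median. The procedure was tested on simulated data. Python 3.11.15, numpy 2.4.6, pandas 2.3.3, statsmodels 0.14.6 and matplotlib 3.10.9 were used.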

Additional observations from a re-analysis of the deposited data

How the results depend on the processing

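With 1 array per population no replicate could be left out, and no paired analysis was possible because each group has 1 sample. The 1 call in cortex and the 10 in epithelium were kept with quantile normalization, loess and the brightness filter. The other settings could not change most of them: all 11 genes have 1 probe and exceed the array median on both arrays, so floor and probe settings leave them as they are, and ribosomal centring, which lowers all 11 log2 differences by the same 0.91, tests the call in cortex alone, which it kept. At a limit of 5-fold, 1 remained in cortex and 6 in epithelium (without Ctsb, Gaa, Glb1 and Hexa). At 2-fold, 2 genes passed in cortex and 18 in epithelium. The shares of all genes at 2-fold, at 5-fold and with the brightness filter are not given here, so these counts have no background. After quantile normalization, loess and ribosomal centring, 1 gene passed in cortex each time, and 15, 14 and 19 passed in epithelium. In the same order, 9.48%, 8.57% and 20.0% of all genes passed in epithelium, against 8.17% with the deposited scaling. In cortex these shares of all genes were 8.28%, 8.75% and 4.32%, against 9.41%. The median of the 38 genes was -1.70 after ribosomal centring, against -0.79 in the main setting, and between -1.26 and -0.63 in the other alternatives. The causes were not tested.

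By class, the proteases had 7 calls in epithelium in the 3 other scalings and at 2-fold, against 4. For the class counts, the shares of all genes in these scalings are given above, whereas those at 2-fold and 5-fold are not. The glycosidases had 2 at 5-fold, against 5. Lipid genes had 2, 1 and 2 calls in epithelium after quantile normalization, loess and ribosomal centring and 2 at 2-fold, against 0. Membrane proteins had 3 after ribosomal centring and 2 at 2-fold, against 1. The pump had 2 in epithelium after ribosomal centring, and 2 in each direction at 2-fold, against 1 in cortex and 0 in epithelium. Of the 84 further lysosomal genes measured, 10 passed in cortex (11.9%) and 11 in epithelium (13.1%), against 9.41% and 8.17% of all genes. Cortex held 47.6% of these calls, against 53.5% of the calls over all genes. After quantile normalization 10 passed in cortex and 18 in epithelium (35.7% in cortex), and after ribosomal centring 5 in cortex and 27 in epithelium (15.6%). Over all genes, cortex held 46.6% of the calls after quantile normalization and 17.8% after ribosomal centring. At 2-fold 23 passed in epithelium, at 5-fold 6 in cortex and 2 in epithelium, and with the brightness filter 7 in epithelium. These counts, too, have no share of all genes beside them. No called member changed direction under any of these settings. Of 43 values of single genes and class medians, 11 moved by more than the median SD between probes after quantile normalization, 5 after loess and 40 after ribosomal centring, 56 of 129 over these scalings. Of 129 values under the floor and probe settings, 2 did.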
